A study of Danio rerio with 9 samples.

Results

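The genes described here are 5 regulators of the PI3K-TOR pathway, namely akt2, sgk1, pim1, ddit4 and eif4ebp1, measured in sorted zebrafish leukaemia cells. They were taken as every probe set whose platform annotation gives exactly 1 gene symbol equal to one of these names. Each gene had 1 probe set, so that they are 5 of the 8793 genes measured and 5 of the 15502 probe sets tested. They were chosen by their measured difference between the models compared here. The study hybridised RNA from 6 samples of the hMYC-ER model, whose transgene joins human MYC to a portion of the oestrogen receptor, and from 3 samples of the hlk model, a zebrafish line that develops T cell leukaemia. All 9 samples were GFP-positive cells sorted from the body at the end stage of disease and labelled as T-lymphoblasts. The labels read here give neither the promoter of the transgene, nor a drug, nor the age of the fish, nor whether samples came from separate fish. P-values therefore measure only sample-to-sample spread, which may be technical. Arrays carry the labels' sample numbers, which run through 1 to 6 in hMYC-ER and through 7 to 9 in hlk.

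PI3K makes a membrane lipid that recruits and activates the kinase Akt. Akt and its relative Sgk1 phosphorylate FOXO factors and other substrates, and Akt also relieves the TSC brake on TOR complex 1. Ddit4, known in mammals as REDD1, is induced by stress and restores that brake, whereas TOR complex 1 phosphorylates the translation repressor Eif4ebp1 and so frees the cap-binding factor eIF4E. Pim1 is a cytokine-induced kinase that shares several substrates with Akt. The pathway is often active in mammalian T cell leukaemia. These are activities of proteins, and the arrays measured transcripts.

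In these samples ddit4 and sgk1 stood far higher in hMYC-ER than in hlk, about 39.8-fold and 31.4-fold, and eif4ebp1 stood 3.36-fold higher. These are differences between means of log2 signal, hMYC-ER minus hlk, after the arrays were given 1 common distribution of signals (quantile normalization) and signals under 16, the floor, were raised to it. Signals of different probe sets are not on 1 scale and are not compared with each other. The groups did not overlap for these 3 genes. For pim1 and akt2 the groups overlapped. The members were proposed with this contrast in view, so their differences are a description and carry no test. In the fit over all probe sets 3 of these 5 genes lay past the adjusted p threshold of 0.05, all 3 higher in hMYC-ER, where 18.9% of all probe sets lay past it (9.15% higher in hMYC-ER, 9.73% higher in hlk). The groups did not overlap for 20.5% of all probe sets, 9.65% with hMYC-ER above. Nothing is read from these counts. In sorted bulk samples, fewer cells of a type and less RNA per cell cannot be told apart.

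**Figure D1:**
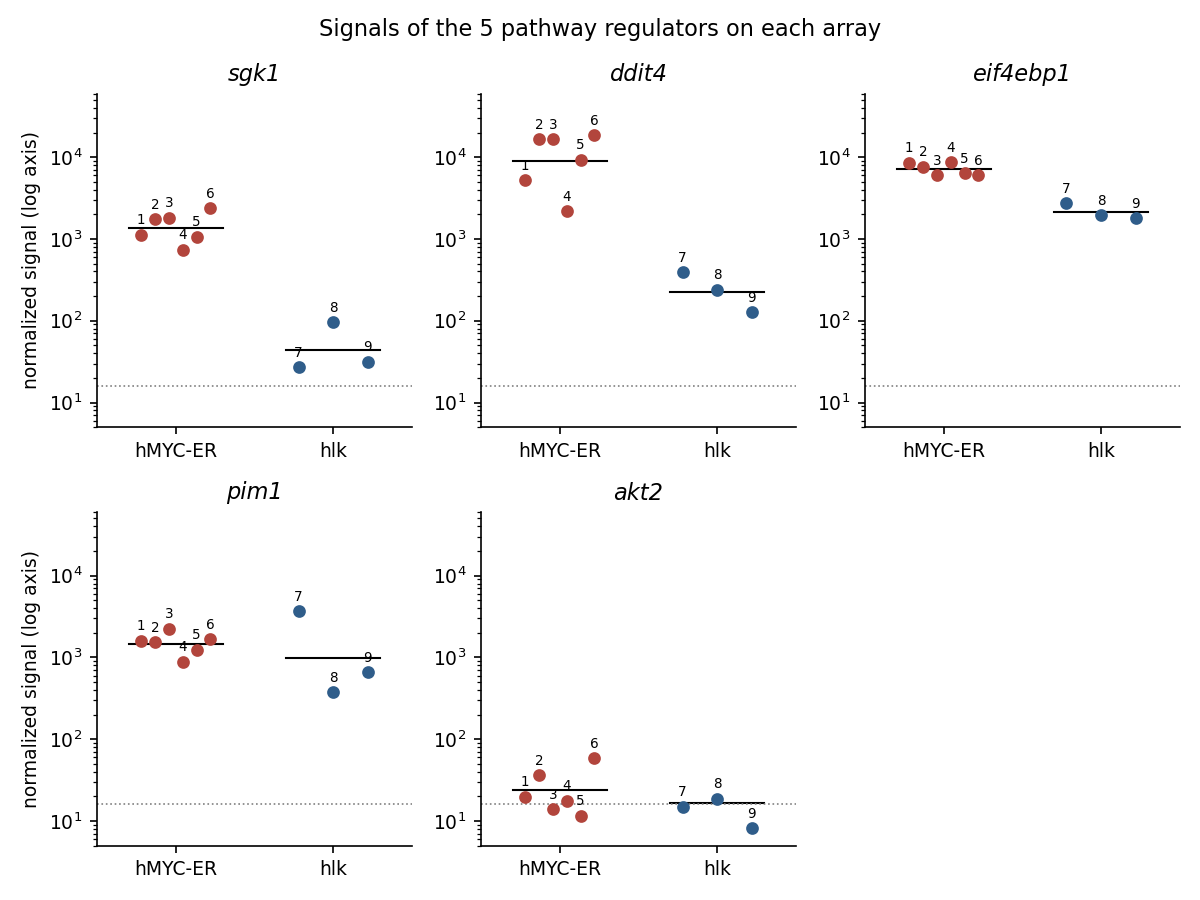
Normalized signal of the 5 pathway regulators on a log axis, with 1 point per array, labelled with its sample number, for 6 hMYC-ER and 3 hlk arrays. Black lines are means of log2 signal put back on the signal scale, with signals under the dotted line, the floor of 16, raised to it for the means; ddit4, sgk1 and eif4ebp1 separate the models, while pim1 has hlk values on both sides of the hMYC-ER arrays.

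The arrays differed in ways that bear on these values. hlk array 7 had a gapdhs control signal 50.8 times as high at the 3' end as at the 5' end of the transcript, against 2.20 to 4.50 on the other 8 arrays, and results that rest on it are given without it as well. The label of T-lymphoblasts was checked against markers. Of 9 measured B cell markers 9 were higher in hMYC-ER, with a summed signal of 57396 to 71004 in hMYC-ER and of 5366 to 8343 in hlk. Such sums add probe sets that are not on 1 scale and are weighted towards bright ones. The hlk sum was mostly cd74a and cd74b. Of the 9 markers 0 lay at the floor on all 3 hlk arrays, but pax5, syk and mhc2dcb did on 2 of 3, and blnk and btk on 1 of 3. The genes syk, mhc2dcb, btk, cd74a and cd74b were named outside the rule for named genes, after their values were seen. Of 9 measured T cell markers 0 passed towards hMYC-ER and 4 towards hlk, with a summed signal of 3476 to 5160 in hMYC-ER and of 29569 to 35079 in hlk. In hlk runx3 alone made up 15139 to 17732 of that sum. The T cell receptor gene trac passed towards hlk (-4.59, limma adjusted p 0.00293), while rag1 (-4.11, adjusted p 0.0570) and rag2 (1.25, adjusted p 0.591) did not pass. The genes trac, rag1 and rag2 were named outside the rule after their values were seen. The part of these differences in the results below was not tested. The median difference of all genes was -0.08 on the log2 scale, and -0.18 with arrays centred on their medians.

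akt2 encodes an Akt kinase, the main effector of the PI3K lipid. Its probe set was dim, at 11.6 to 58.9 with a median of 18.8 in hMYC-ER, against 14.9, 18.6 and 8.17 on hlk arrays 7, 8 and 9. Of the hMYC-ER arrays 2 of 6, and of the hlk arrays 2 of 3, lay under the floor of 16, so this probe set gives little information on either model. The log2 difference was 0.51 (SE 0.43), and 0.25 when hMYC-ER array 6, the highest, was left out. No probe set was named akt1, akt3a or akt3b. A gene annotated as akt2l, singled out after its values were seen, had a probe set at 9.87 to 50.7 in hMYC-ER and at 99.5, 97.6 and 78.9 in hlk, a difference of -1.72 (limma adjusted p 0.0207). That call ended without hlk array 7 or 8 (adjusted p 0.0588 to 0.0626), and its other probe set differed by 0.08 (adjusted p 0.809). For that other probe set 4 of 6 hMYC-ER and 2 of 3 hlk arrays lay at the floor, so it gives little information.

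sgk1 encodes a kinase related to Akt that in mammals is induced by glucocorticoids and osmotic stress and is activated through TOR complex 2. Its signal ran from 738 to 2361 in hMYC-ER with a median of 1433, against 26.98, 96.7 and 31.7 on hlk arrays 7, 8 and 9. Every hMYC-ER array was above every hlk array, and the lowest hMYC-ER value was 7.63 times the highest hlk value. The log2 means were 10.42 ± 0.62 (SD, n = 6) in hMYC-ER arrays and 5.45 ± 1.00 (SD, n = 3) in hlk arrays, which differ by 4.97 (SE 0.49). Of the 3 hlk values 2 lay under 64, and a floor of 64 made the difference 4.22. It was 4.64 without hlk array 7 and 5.56 without array 8.

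pim1 encodes a short-lived serine/threonine kinase that cytokines induce through STAT factors. It had a signal of 891 to 2235 in hMYC-ER with a median of 1575, against 3703, 378 and 659 on hlk arrays 7, 8 and 9. The highest and the lowest value of all 9 arrays were both in hlk, which spanned 9.79-fold, whereas hMYC-ER spanned 2.51-fold. The SD of pim1 over the hlk arrays, 1.72 on the log2 scale, was larger than that of 98.1% of the 1463 other probe sets whose hlk mean lay within 0.5 of its own. Its difference of 0.60 (SE 0.65) rested on single arrays, being 1.55 without hlk array 7, -0.08 without array 8 and 0.32 without array 9. The hlk value that stood above the hMYC-ER range was that of array 7, the array with the high 3' to 5' ratio.

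ddit4 encodes a stress-induced inhibitor of TOR complex 1. Its signal was 5246, 16673, 16673, 2172, 9314 and 18580 on hMYC-ER arrays 1 to 6, against 390, 238 and 127 on hlk arrays 7, 8 and 9. Every hMYC-ER value exceeded every hlk value, the lowest of them, on array 4, by 5.57-fold over the highest hlk value. The log2 means were 13.14 ± 1.22 (SD, n = 6) in hMYC-ER arrays and 7.83 ± 0.81 (SD, n = 3) in hlk arrays, which differ by 5.31 (SE 0.74), which ran from 4.89 to 5.75 when each array was left out in turn. The hMYC-ER arrays also differed widely among themselves, by 8.55-fold. The SD of ddit4 over these 6 arrays was larger than that of 100% of the 155 other probe sets whose hMYC-ER mean lay within 0.5 of its own.

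eif4ebp1 encodes the repressor that holds eIF4E away from the cap-binding complex until TOR complex 1 phosphorylates it. Its signal ran from 5991 to 8706 in hMYC-ER with a median of 6965, against 2756, 1936 and 1780 on hlk arrays 7, 8 and 9. The groups did not overlap, and the highest to lowest ratio was 1.45 within hMYC-ER and 1.55 within hlk. Its SD over hMYC-ER was larger than that of 62.7% of the 220 other probe sets whose mean there lay within 0.5 of its own. In hlk it was larger than that of 53.3% of 828 such probe sets. The log2 means were 12.80 ± 0.25 (SD, n = 6) in hMYC-ER arrays and 11.05 ± 0.33 (SD, n = 3) in hlk arrays, which differ by 1.75 (SE 0.19) that stayed between 1.63 and 1.94 with each array left out.

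**Figure D2:**
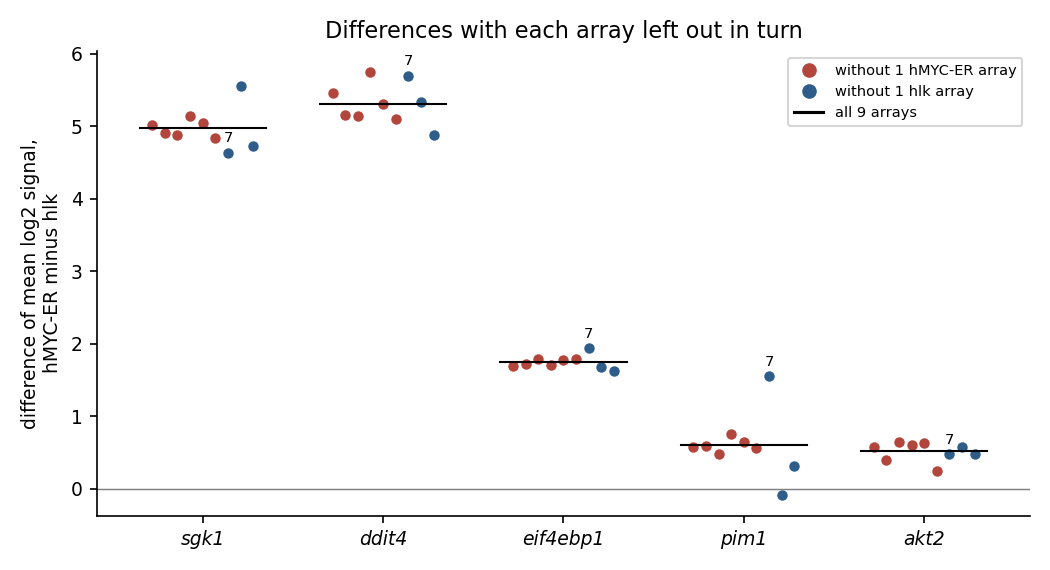
Difference of mean log2 signal, hMYC-ER minus hlk, for each of the 5 regulators with 1 array left out at a time (points, coloured by the model of the array left out; 7 marks hlk array 7) and with all 9 arrays (black line). The points of sgk1, ddit4 and eif4ebp1 stay above 1.6, whereas those of pim1 reach both sides of 0 when single hlk arrays are removed.

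The relation of the members to each other was examined over the 6 hMYC-ER arrays, where the spread within a model, and not the gap between the models, sets a correlation. The p-values were adjusted over the 10 pairs computed, of which 6 join the 4 of these genes that lay above the floor on all arrays. On array 4 ddit4, sgk1 and pim1 each had their lowest hMYC-ER value and eif4ebp1 its highest, and on array 6 ddit4 and sgk1 had their highest and eif4ebp1 its lowest. For sgk1 and ddit4 Pearson's r was 0.93 (two-sided exact permutation p 0.00833, adjusted p over the 10 pairs 0.0833) and Spearman's rho 0.93 (exact permutation p 0.0167, adjusted p 0.111), and r was 0.87 over the 4 arrays left after removing the 2 farthest from the sgk1 median. For ddit4 and eif4ebp1 r was -0.78 (exact permutation p 0.0694, adjusted p 0.174) and rho -0.90 (exact permutation p 0.0278, adjusted p 0.111), but r was 0.05 without the 2 arrays farthest from the ddit4 median, so that this relation rests on those arrays. Of these 6 pairs 0 passed after adjustment by either measure. At an unadjusted p under 0.05, 2 pairs passed by Pearson's r, sgk1 with ddit4 and sgk1 with pim1 (r 0.80, exact permutation p 0.0403), and 3 by rho, these and ddit4 with eif4ebp1. With 3 arrays, hlk is too small for the same comparison. No batch is recorded in the labels, so batch and model cannot be told apart.

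**Figure D3:**
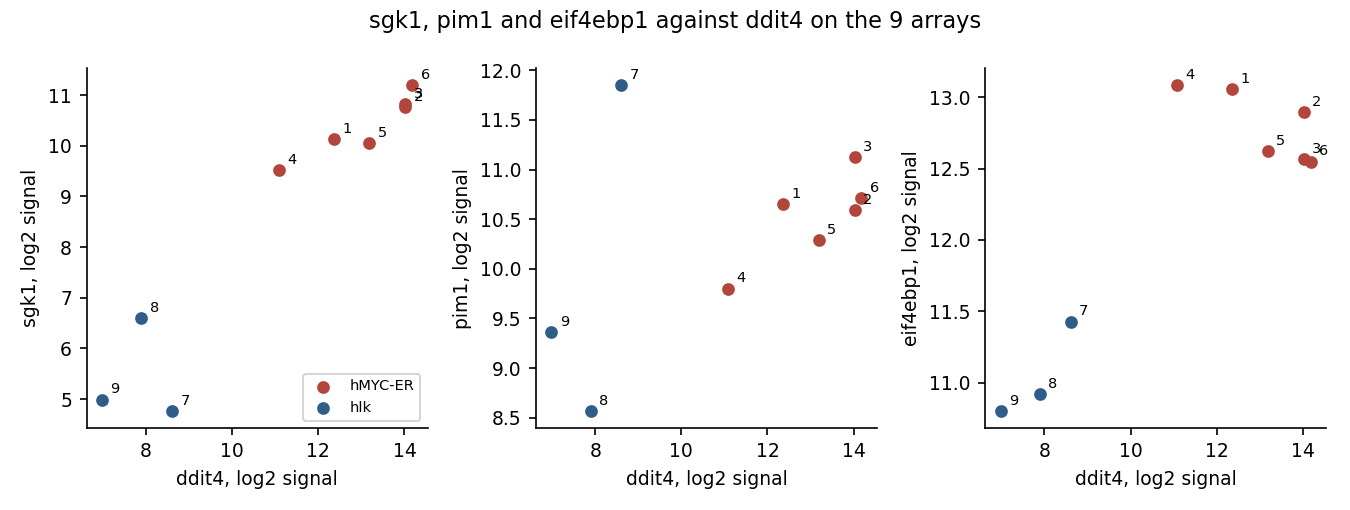
Log2 signal of sgk1, pim1 and eif4ebp1 (vertical axes) against that of ddit4 (horizontal axes) on 6 hMYC-ER arrays and 3 hlk arrays, 1 point per array with its sample number. Within hMYC-ER, array 4 has the lowest ddit4, sgk1 and pim1 and the highest eif4ebp1, and hlk array 7 stands above the other arrays for pim1.

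Among 5374 other named genes (5375 for akt2) with a mean log2 signal of at least 6, the 3 most like each member were found by Pearson's r over the 9 arrays. Where the models stand apart this r is largely set by the gap between them, so r over the 6 hMYC-ER arrays is given beside it, and neither carries a test. Most like ddit4 were pik3c2a (r 0.98, and 0.77 within hMYC-ER), serinc5 (0.97 and 0.76) and ulk1a (0.97 and 0.90), of which pik3c2a, a class II PI3K, and ulk1a, a kinase that starts autophagy, also belong to the pathway lists below. Most like sgk1 were arhgef18a (0.99 and 0.84), flna (0.99 and 0.94) and eef1b2 (0.99 and 0.83). Since r does not measure size, eef1b2 could rank here with a difference of only 0.19, against 4.97 for sgk1. For eif4ebp1 they were cib1 (1.00 and 0.93), gfod2 (0.99 and 0.93) and ociad1 (0.99 and 0.93). The gene most like pim1 was socs3a, a feedback inhibitor of cytokine signalling (0.96 and 0.90), followed by cnn2 (0.94 and 0.53) and lasp1 (0.94 and 0.70). Most like the dim akt2 were tpte (0.96 and 0.97), rab22a (0.85 and 0.83) and khdc4 (0.83 and 0.86).

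The measured paralogues of the members did not all follow them. The second Pim kinase gene pim2 had a signal of 1028 to 3290 in hMYC-ER, with a median of 2016, against 949, 292 and 262 on hlk arrays 7, 8 and 9. Every hMYC-ER array was above every hlk array, and the difference of 2.14 passed (SE 0.53, limma adjusted p 0.0250). That call ended without any 1 of arrays 2, 6, 8 and 9 (adjusted p 0.0507 to 0.0932), with differences of 1.80 to 2.72 over all arrays left out. pim3 differed by -0.08 (adjusted p 0.868). Of the other 4E-BP genes, eif4ebp3l had 1022 to 1831 in hMYC-ER with a median of 1254, against 111, 297 and 98.8 in hlk, which differ by 3.11 (SE 0.35, adjusted p 6.3e-04). eif4ebp2 pointed the other way, at 3961 to 5335 in hMYC-ER with a median of 4202, against 6544, 5335 and 5299 in hlk. Its difference of -0.39 (SE 0.12) did not pass (adjusted p 0.0611), and it passed when arrays were centred on their medians (-0.57, adjusted p 0.0173), with signals as deposited (-0.45, adjusted p 0.0375) and without hMYC-ER array 6 (-0.45, adjusted p 0.0230).

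Of 215 other genes listed for the pathway 107 were measured. Of these, 15 passed towards hMYC-ER, 12 passed towards hlk and 80 did not pass. That is 25.2% of the measured genes, near the 21.1% of all 8793 genes that passed (887 with hMYC-ER above, 969 with hlk above), and the median difference was -0.05 against -0.08 for all genes. Leaving out hlk array 7 gave counts of 14 and 12.

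**Figure D4:**
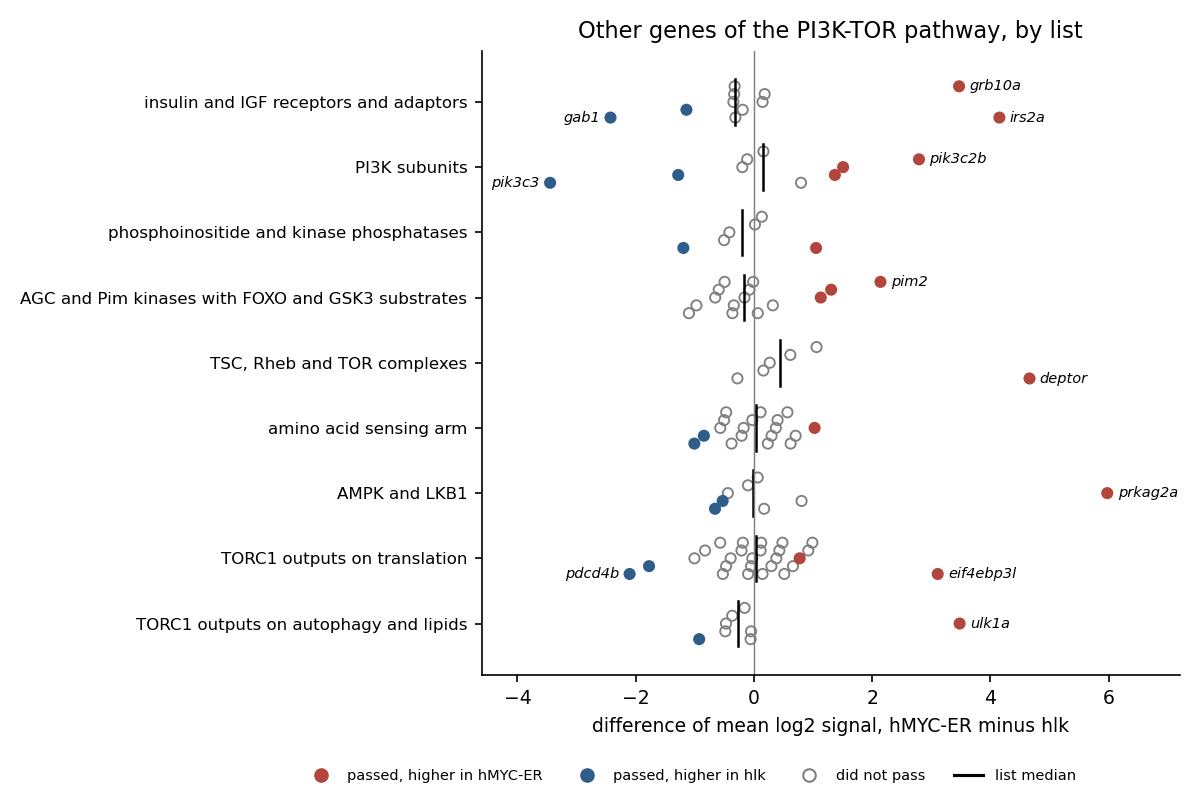
Difference of mean log2 signal, hMYC-ER minus hlk, for 107 measured genes of the pathway other than the regulators themselves, by list. Filled points passed the adjusted p threshold of 0.05 (red higher in hMYC-ER, blue higher in hlk), open points did not, and black bars are list medians; names mark passing genes beyond 2 in either direction, with prkag2a, deptor and irs2a farthest towards hMYC-ER and pik3c3 farthest towards hlk.

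Among growth factor receptors and their adaptors, 2 of 11 measured genes lay higher in hMYC-ER, 2 in hlk. The insulin receptor substrate gene irs2a had a signal of 565 to 1710 in hMYC-ER with a median of 1065, against 48.7, 80.5 and 52.0 in hlk (difference 4.15, SE 0.35, limma adjusted p 1.4e-04). The adaptor gene grb10a, whose mammalian product restrains insulin receptor signalling, differed by 3.47 (SE 0.21, adjusted p 2.5e-05). The docking protein gene gab1 was higher in hlk, at 31.0 to 57.6 in hMYC-ER and 151, 247 and 361 in hlk (-2.42, SE 0.28, adjusted p 7.7e-04). The growth factor gene igf2a, near the floor in both models, differed by -1.14 (adjusted p 0.00248) and did not pass with a floor of 1 (adjusted p 0.0790) and could not be measured with a floor of 64. The list had 2 genes towards hMYC-ER and 3 towards hlk when hlk array 7 was left out.

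Of 9 measured PI3K subunit genes 3 lay higher in hMYC-ER, 2 in hlk. The class III enzyme gene pik3c3, which serves autophagy and endosomes rather than Akt, had a signal of 693 to 861 in hMYC-ER, against 9678, 5299 and 10868 in hlk (-3.45, SE 0.22, adjusted p 2.9e-05). The class II genes pik3c2b (2.79, SE 0.34, adjusted p 9.7e-04) and pik3c2a (1.37, SE 0.16, adjusted p 8.3e-04) were higher in hMYC-ER, as was pik3ip1, an inhibitor of PI3K (1.51, adjusted p 0.0376). The gene pik3ip1, named outside the rule after its values were seen, lost its call without any 1 of 8 arrays, all but array 5 (adjusted p 0.0605 to 0.101). A second pik3c2a probe set differed by 0.56 (adjusted p 0.693). The regulatory subunit gene pik3r3b was higher in hlk (-1.28, adjusted p 0.0179), which did not hold without hlk array 9 (adjusted p 0.0620). Its second probe set differed by 0.27 (adjusted p 0.747) and was near the floor, at log2 means of 4.92 in hMYC-ER and 4.65 in hlk. Leaving out hlk array 7 gave 2 genes of this list towards each model. Of 6 measured phosphatase genes, inpp4aa was higher in hlk (-1.19, SE 0.11, adjusted p 2.7e-04). inpp4b passed towards hMYC-ER (1.05, adjusted p 0.0460) with dim signals, at 31.1 to 86.1 in hMYC-ER and 19.8 to 26.7 in hlk. It did not pass with a floor of 64 (0.07, adjusted p 0.849). That call also ended without any 1 of 7 arrays, all but 2 and 3 (adjusted p 0.0631 to 0.139). Without hlk array 7 the list had 0 genes towards hMYC-ER and 2 towards hlk. Both inpp4aa and inpp4b encode phosphatases that act on the products of PI3K.

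In the list of Akt-related kinases and their substrates 3 of 15 genes lay higher in hMYC-ER, 0 in hlk, namely pim2, the Akt-activating kinase gene pdpk1a (1.31, adjusted p 0.0278) and the ubiquitin ligase gene peli1b (1.13, adjusted p 0.0208). The call of pdpk1a ended without any 1 of arrays 1, 2, 3, 7 and 9 (adjusted p 0.0503 to 0.0789, with 0.92 without array 7) and that of peli1b without array 7 (0.87, adjusted p 0.0621) or array 8 (adjusted p 0.0611). The list had 1 gene higher in hMYC-ER when hlk array 7 was left out.

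For TSC, Rheb and the TOR complexes, 1 of 6 measured genes passed. This was deptor, whose product binds and inhibits the TOR kinase in mammals. Its signal was 469 to 1319 in hMYC-ER with a median of 884, against 47.7, 24.5 and 27.9 on hlk arrays 7, 8 and 9, a difference of 4.65 (SE 0.37, adjusted p 1.0e-04), and the groups did not overlap. The kinase gene mtor (0.62, SE 0.27, adjusted p 0.164), mlst8 (1.06, SE 0.35, adjusted p 0.0705) and rheb (0.16, SE 0.63, adjusted p 0.905), all named outside the rule for named genes after their values were seen, did not pass. When hlk array 7 was left out, 2 genes of this list were higher in hMYC-ER.

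**Figure D5:**
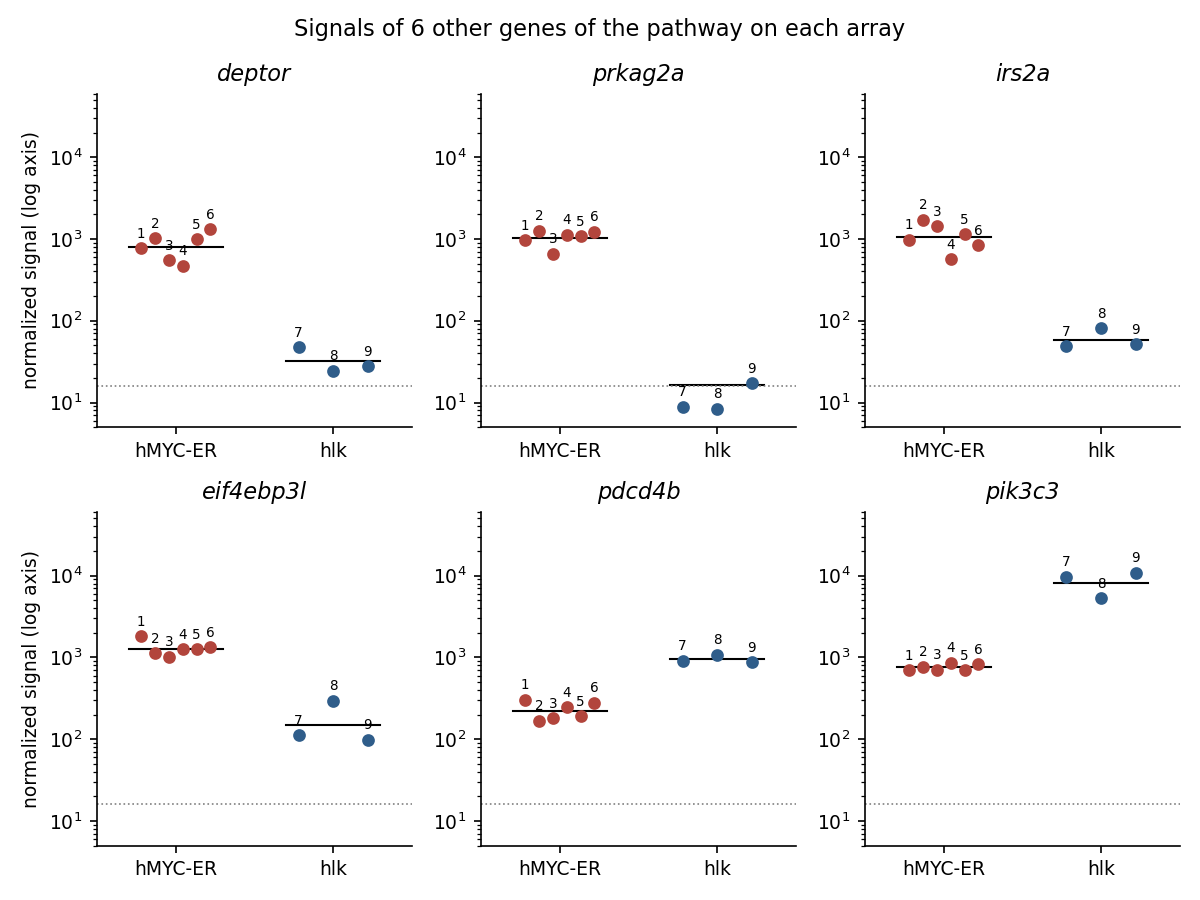
Normalized signal on a log axis of 6 other genes of the pathway, with 1 point per array, labelled with its sample number, for 6 hMYC-ER and 3 hlk arrays; lines are means of log2 signal and the dotted line is the floor of 16. In each panel the groups do not overlap, with deptor, prkag2a, irs2a and eif4ebp3l higher in hMYC-ER and pdcd4b and pik3c3 higher in hlk.

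In the amino acid sensing arm, 1 of 18 measured genes lay higher in hMYC-ER, 2 in hlk. Each of these 3 calls ended when any 1 of several arrays was left out. The sestrin gene sesn3, a leucine sensor family member (-1.01, adjusted p 0.0344), lost its call without any 1 of 7 arrays, all but 1 and 8 (adjusted p 0.0562 to 0.0792). Its signals were dim, and its call also ended with a floor of 64 (-0.44, adjusted p 0.216). The Ragulator gene lamtor4 (-0.85, adjusted p 0.0298) lost it without any 1 of 7 arrays, all but 1 and 9 (0.0546 to 0.0903), and the GATOR gene sec13 (1.03, adjusted p 0.0324) without any 1 of arrays 2 to 6 (0.0523 to 0.0664), its difference being 0.64 without hlk array 7. Without hlk array 7, 3 genes of this list lay higher in hMYC-ER, 0 in hlk.

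For the energy sensor AMPK and its activating kinase complex, 1 of 8 measured genes lay higher in hMYC-ER, 2 in hlk. The regulatory subunit gene prkag2a had a signal of 662 to 1264 in hMYC-ER with a median of 1102, against 8.92, 8.43 and 17.3 on hlk arrays 7, 8 and 9, of which 2 lay under the floor. The size of its difference, 5.97 (SE 0.20, limma adjusted p 1.5e-06), therefore depends on the floor, and a floor of 64 made it 4.01. Of the genes of the activating complex, strada (-0.66, adjusted p 0.00801) and stk11 (-0.53, adjusted p 0.0452) were higher in hlk by less than 2-fold. The call of stk11 ended without any 1 of 8 arrays, all but array 7 (adjusted p 0.0512 to 0.139). The gene cab39l of this list, named outside the rule after its values were seen, did not pass (0.17, adjusted p 0.465).

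Among the outputs of TOR complex 1 on translation, 2 of 26 measured genes lay higher in hMYC-ER, 2 in hlk. Besides eif4ebp3l, the initiation factor gene eif4bb was higher in hMYC-ER (0.77, SE 0.11, adjusted p 0.00184). The translation repressor gene pdcd4b, whose mammalian product is degraded after S6 kinase acts on it, had a signal of 168 to 304 in hMYC-ER, against 912, 1082 and 876 in hlk (-2.10, SE 0.21, adjusted p 3.8e-04). The kinase gene rps6ka1 was also higher in hlk (-1.77, SE 0.19, adjusted p 5.1e-04). Its product is a p90 kinase of the ERK pathway, not the S6 kinase that TOR complex 1 activates, though the list counts it. The gene rps6kb1b, which encodes that S6 kinase, did not pass (0.48, SE 0.41, adjusted p 0.480). It was named outside the rule after its values were seen. So was the pdcd4b paralogue pdcd4a, which did not pass (0.51, adjusted p 0.125), at log2 means of 12.80 in hMYC-ER and 12.29 in hlk. Of 8 genes for the outputs on autophagy and lipids, ulk1a had 43.8 to 364 in hMYC-ER, with all 3 hlk arrays under the floor. The size of the difference of means, 11.1-fold (adjusted p 0.00582), therefore depends on the floor. The ulk1a signal was lowest in hMYC-ER on array 4, as were those of ddit4 and several other named genes, among them irs2a, deptor and egln3. The call of ulk1a did not hold with a floor of 64 (1.57, adjusted p 0.0970). The paralogue ulk1b, named outside the rule after its values were seen, did not pass (-0.16, adjusted p 0.912). Its log2 means were 8.17 in hMYC-ER and 8.32 in hlk. The RNA polymerase III repressor gene maf1b was higher in hlk (-0.93, adjusted p 0.0235), which did not hold when hlk array 8 (adjusted p 0.0679) or array 9 (0.0829) was left out.

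Several responses are known to induce ddit4, sgk1, eif4ebp1 or pim1, and their genes were counted in the same way. Of 14 measured genes of the integrated stress response, which acts through ATF4, 2 lay higher in hMYC-ER, 1 in hlk. The ATF4 target chac1 differed by 1.59 (SE 0.22, limma adjusted p 0.00185, second probe set -0.14). For atf5b the log2 difference was 2.37 (SE 0.31, adjusted p 0.00140), and for atf5a, higher in hlk, -1.996 (SE 0.39, adjusted p 0.00971). Of 14 hypoxia response genes 1 passed. This was egln3, which encodes an oxygen sensor that is itself a HIF target, at 1048 to 2576 in hMYC-ER against 213, 761 and 207 in hlk (2.64, SE 0.46, adjusted p 0.00565; 3.25 without hlk array 8). Of 13 glucocorticoid response genes 2 were higher in hMYC-ER, the AP-1 gene fosl2 (3.68, SE 0.39, adjusted p 4.7e-04, 3 of 3 probe sets) and the phosphatase gene dusp1 (0.70, adjusted p 0.0203), and dusp1 did not pass without hlk array 7 (0.62, adjusted p 0.0602) or array 9 (0.0693). Leaving out hlk array 7 gave 4 stress response genes towards hMYC-ER and 1 towards hlk, and 1 and 0 glucocorticoid genes.

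Of 14 measured genes listed as FOXO targets, 4 lay higher in hMYC-ER, 1 in hlk, and the median difference was -0.24. Beside irs2a and pik3ip1 these were the migration and quiescence regulators klf2a, at 4482 to 7351 in hMYC-ER against 147, 161 and 1900 in hlk (4.00, SE 0.75, adjusted p 0.00767; 3.35 without hlk array 7 and 5.19 without array 9), and klf2b (3.52, SE 0.62, adjusted p 0.00559), and sesn3 was the gene higher in hlk. The gene rag1 of this list, named outside the rule after its values were seen, did not pass (-4.11, SE 1.26, adjusted p 0.0570). Without hlk array 7 the counts were 3 and 2, and the median difference of the list was -0.39. Of 13 genes of STAT and cytokine signalling 2 lay higher in hMYC-ER, 3 in hlk. The kinase gene jak2a differed by 1.64 (SE 0.13, adjusted p 8.6e-05), jak1 by -0.87 (SE 0.19, adjusted p 0.0136) and the feedback inhibitor gene socs1a by -3.73 (SE 0.49, adjusted p 0.00133, second probe set -3.40). pim2 and socs3b (-1.90, adjusted p 0.0145) were the other genes that passed, and socs3b, named outside the rule after its values were seen, lost its call without hlk array 9 (adjusted p 0.0534). Leaving out hlk array 7 gave 3 genes towards each model. Each of these shares lay at 7.14% to 38.5% of the measured genes, against 21.1% of all genes.

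Markers of other cells were set beside these values. Defining B cell genes were among the farthest apart, with pax5 at 1802 to 2466 in hMYC-ER against 30.3, 7.10 and 4.50 in hlk (6.78, adjusted p 1.3e-06), blnk at a difference of 6.55 (adjusted p 1.1e-05) and igl1c1 at 7.72 (adjusted p 1.3e-07). A second pax5 probe set differed by 0.15 (adjusted p 0.801), at log2 means of 5.98 in hMYC-ER and 5.83 in hlk. The T lineage genes ets1 (-4.28, adjusted p 8.7e-05), runx3 (-3.51, adjusted p 3.4e-04) and gata3 (-4.69, adjusted p 0.00170) were higher in hlk. The gata3 difference was -4.09 without hlk array 7 and -5.39 without array 8. A second ets1 probe set differed by -2.08 and did not pass (adjusted p 0.0765). Of 10 myeloid genes 1 was higher in hMYC-ER, ncf1 (7.93, adjusted p 5.5e-07), and 1 in hlk, lgals2b (-2.50, adjusted p 0.00477). Their summed signal was 10498 to 18632 in hMYC-ER and 690 to 1107 in hlk. The gene csf1ra, named outside the rule after its values were seen, lay at the floor on all 6 hMYC-ER and on 2 of 3 hlk arrays. The gene ncf1 alone made up 10174 to 18259 of the sum in hMYC-ER, and the median difference of the list was -0.57. Of 13 erythroid and thrombocyte genes 0 passed with limma at the adjusted threshold, the smallest p being that of hbbe2 (-0.93, adjusted p 0.193), and the summed signals were 632 to 1022 in hMYC-ER and 329 to 1220 in hlk. Skin, muscle and gut genes had 2 of 20 higher in hlk, mylz3 (-1.22, adjusted p 0.00464) and apoa4b.1 (-0.96, adjusted p 0.0429, not held when arrays 2, 4, 5, 6, 7 or 9 were left out, at 0.0722 to 0.122). The gene apoa4b.1 was near the floor and could not be measured with a floor of 64. Summed signals of this list were 710 to 1188 in hMYC-ER and 1099 to 4008 in hlk. Its median difference was -0.77, and -0.33 without hlk array 7. Endothelial and stromal genes had 1 of 8 higher in hMYC-ER, cxcl12b, whose mean was 19.5-fold higher (adjusted p 0.00699) with all 3 hlk arrays at the floor. This gene did not pass with a floor of 64 (2.29, adjusted p 0.119). Without hlk array 7, counts higher in hMYC-ER and in hlk were 8 and 0 for B cell, 0 and 5 for T cell, 1 and 2 for myeloid, 1 and 0 for erythroid and thrombocyte, 1 and 1 for skin, muscle and gut, and 1 and 1 for endothelial and stromal genes. The part of these markers in the differences of sgk1, ddit4 and eif4ebp1 was not tested.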

How the data were processed

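Biotinylated cRNA was made from 100 ng of total RNA by the Affymetrix procedure, per the labels' protocols. The deposited table holds 1 linear signal intensity per probe set and array, already scaled by the authors, since every array has a 2% trimmed mean of 500.1 or 500.2. The labels do not name the signal algorithm, and detection calls were not used here. The arrays' number limits the precision.

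Of 15617 probe sets, 115 control probe sets were left out. Array medians differed by 0.30 on the log2 scale, so the 15502 others were quantile normalized, floored at a signal of 16 (4 on the log2 scale) and put on the log2 scale. Probe sets were named by the platform annotation, with symbols updated by Entrez identifier with a table of assembly GRCz12tu used for names only. Of the 15502 probe sets, 10795 had 1 symbol, 135 had several and 4572 had none. The table held 10711 of the 10795, and 1 symbol changed. For genes that are no members, the brightest probe set by mean over 9 arrays was used, which gave 8793 genes. No genome or sequence table was used here, so no coordinates or sequences are given.

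All 9 arrays were fitted with limma 3.58.1 in R 4.3.3, without covariates, with Benjamini-Hochberg adjustment over the 15502 probe sets and a threshold of 0.05. Every adjusted p in the text is from that fit unless another test is named. Where an alternative or a left-out array is named, it is from limma refitted to those data. Differences are hMYC-ER minus hlk. The fit was tested on simulated data. Correlations between members were tested by exact permutation with scipy 1.17.1, and figures were drawn with matplotlib 3.10.9 under Python 3.11.15.

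The members and lists were chosen with earlier results of these data known. Members are described with no test, and 1 further member is not reported here. Beside them, the text names their measured paralogues, up to 4 genes past the threshold with the smallest p in each pathway list, up to 3 in each further list and in the B and T cell marker lists, up to 2 in other marker lists, the gene with the smallest p where none passed, and the 3 genes most like each member. Genes outside this rule are marked where they are named. Alternatives were centring arrays on their medians, signals as deposited, floors of 1 and 64, leaving out each array or the dimmest 1 in 3 probe sets, array weights, a robust prior with an intensity trend, gene-level fits and a 2-fold minimum. List counts that omit hlk array 7, and leaving out each array for pik3ip1, socs3b and akt2l, were alternatives added after seeing the data.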

Additional observations from a re-analysis of the deposited data

Results flagged for a closer look

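Over the 6 hMYC-ER arrays, 56 genes were examined for an array far from the others by Dixon's test, and 6 were found, where chance gives about 1 in 20. None of the 5 pathway regulators was among them. klf2b stood at 7.39 on the log2 scale on array 5, against 9.57 to 9.85 on the other 5 arrays. egln3 stood at 10.03 on array 4, the array with the lowest ddit4, against 11.05 to 11.33 elsewhere in hMYC-ER. pik3r3b stood at 6.93 on array 6, against 7.80 to 8.04. dusp1 stood at 13.72 on array 5, against 14.15 to 14.39. eif4ebp2 stood at 12.38 on array 6, against 11.95 to 12.11. gata3 lay at the floor of 4 on array 6, against 5.48 to 6.22. The causes were not tested.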

How the results depend on the processing

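The differences of sgk1, ddit4 and eif4ebp1 kept their direction with arrays centred on medians and with signals as deposited. Floors of 1 and 64 could not reverse them, because all hMYC-ER signals of these genes lay above both floors. A floor of 1 left these differences unchanged, as did a floor of 64 for ddit4 and eif4ebp1. The direction of all of them also held with each array left out, but groups that do not overlap could hardly reverse that way. The other alternatives were not applied to the members. Leaving out each array in turn gave 4.64 to 5.56 for sgk1, 4.89 to 5.75 for ddit4, 1.63 to 1.94 for eif4ebp1, 0.25 to 0.64 for akt2 and -0.08 to 1.55 for pim1. A floor of 64 gave 4.22 for sgk1, because hlk values lie under it. The 15 pathway genes higher in hMYC-ER numbered 11 to 16 over 19 alternatives (11 to 14 with an array left out), and the 12 higher in hlk numbered 8 to 14 (9 to 12 with an array left out). Of the 51 genes named by the rule, 35 kept their call and direction in all alternative fits adjusted over probe sets that measured them. The other 16 did not, and 0 reversed. The gene-level fits were not part of this count. No paired analysis was possible because the models share no replicate number. A floor of 64 also gave folds of 12.5 for deptor, 16.1 for prkag2a, 2.15 for atf5b, 34.1 for pax5 and 33.2 for blnk towards hMYC-ER and of 2.15 for lgals2b towards hlk, which all still passed. Signals near the floor limit, among others, akt2, igf2a, ulk1a, cxcl12b, prkag2a, inpp4b, sesn3, apoa4b.1 and the hlk values of sgk1.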
